A study of Mus musculus with 4 samples.

Results

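The major histocompatibility region of the mouse, H2, was examined for integration of an HIV-based vector steered by fusions of TAF3. All sites were taken whose junction between vector and host lay from position 33900001 to position 37400000 of chromosome 17 (mm9), a span of 3.5 Mb set by its coordinates. Sites of a library that shared chromosome, strand and junction position were counted once. Of 122029 such sites in the series, 797 (0.653%) lay there, on 0.136% of the span between the outermost sites of all chromosomes. The host cells were the MEF-KO line, mouse embryonic fibroblasts (MEF) of strain C57BL/6 with the genotype Psip1 (-/-), which lack LEDGF/p75, the cell's own anchor for HIV integrase. In each library these cells had received a plasmid for TAF3 joined to the integrase-binding domain of LEDGF, had been sorted for GFP and had then been infected with the vector. The listed recovery time (24 to 36 h), vector amount (500 ng) and harvest time (48 to 72 h) were the same in all groups. The groups were full-length TAF3 with the M880A substitution (Full M880A), full-length TAF3 with wild-type sequence (Full WT), the PHD domain alone with M880A (PHD M880A) and the PHD domain alone with wild-type sequence (PHD WT). Each group was 1 library of 1 cell line, the fusion was delivered by nucleofection, and the readout is vector integration and not the bound protein itself. No difference below has a replicate check. Intervals are 95% intervals and cover counting error only, since each group was 1 library. The reads came from PCR with no molecular identifiers.

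TAF3 belongs to TFIID, the complex that recognises core promoters and nucleates the transcription machinery. Its PHD finger binds the tail of histone H3 when lysine 4 is trimethylated, a mark found at the starts of active genes, and the methionine replaced in M880A lies in that finger. HIV integrase inserts the vector near the place where its chromatin partner sits, so a fusion that carries the integrase-binding domain can leave vector copies beside the sites it visits. The H2 region is known for its dense packing of unlike genes. In the RefSeq order of the later build GRCm38, Daxx (a histone chaperone), Tapbp (tapasin, a peptide-loading factor), Rps18 (a ribosomal protein) and the class I gene H2-K1 come first among the genes looked up. Ring1 (a Polycomb ubiquitin ligase) and Rxrb (a nuclear receptor) precede the class II genes H2-Oa and H2-DMa, between which stands Brd2 (a reader of acetylated histones), followed by the antigen-processing genes Psmb9, Tap1, Psmb8 and Tap2 and the class II genes H2-Ab1, H2-Aa and H2-Eb1. Complement genes such as C4b and C2, Ehmt2 (a histone methyltransferase), the heat shock genes Hspa1b and Hspa1a, and the cytokine genes Ltb, Tnf and Lta come next. H2-D1 and the Q class I genes, a group of broadly used genes with Gtf2h4 (a TFIIH subunit), Tubb5 (a tubulin) and Abcf1 (a translation factor), and the T and M class I genes close the order. No annotation of mm9 was used here, so no site was assigned to a gene, and the name H2 rests on the coordinates.

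The region was dense in sites in all libraries, least so in PHD M880A. Full M880A had 232 sites in it, Full WT 221, PHD M880A 95 and PHD WT 249. Per Mb this was 66.3 (58.0 to 75.4) in Full M880A, 63.1 (55.1 to 72.0) in Full WT, 27.1 (22.0 to 33.2) in PHD M880A and 71.1 (62.6 to 80.6) in PHD WT. The rest of the genome held 15.2, 8.67, 13.6 and 9.78 sites per Mb in the same order of libraries. The density in the region was thus 4.36 times (3.81 to 4.96) that of the rest in Full M880A, 7.28 times (6.35 to 8.31) in Full WT, 2.00 times (1.62 to 2.45) in PHD M880A and 7.27 times (6.39 to 8.24) in PHD WT. Against the rest of chromosome 17 the folds were 3.79 (3.28 to 4.35), 5.57 (4.80 to 6.45), 1.80 (1.45 to 2.22) and 5.46 (4.75 to 6.27). The intervals of the WT libraries overlap almost fully, and those of PHD M880A lie below all others in both comparisons.

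**Figure D1:**
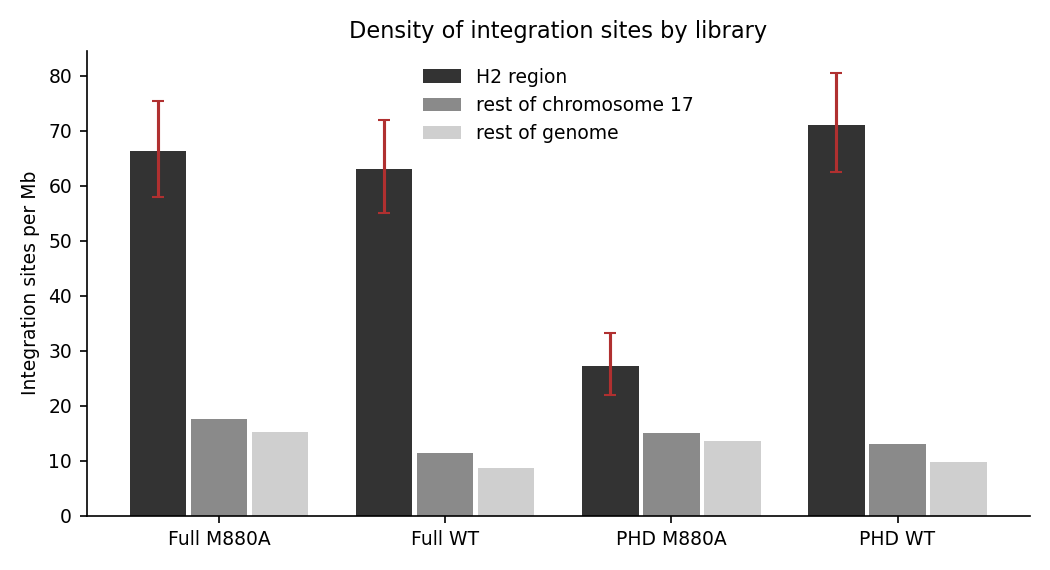
Integration sites per Mb (vertical axis) in the H2 region, the rest of chromosome 17 and the rest of the genome for each library, with exact 95% Poisson intervals on the region's bars. The region's bar is the tallest in each library, at 27.1 per Mb in PHD M880A and between 63.1 and 71.1 per Mb in the others.

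As a share of each library, the region took 0.590% (0.519 to 0.671) of Full M880A, 0.983% (0.862 to 1.12) of Full WT, 0.272% (0.223 to 0.333) of PHD M880A and 0.982% (0.868 to 1.11) of PHD WT. The PHD M880A share was 0.277 times (0.217 to 0.353) the PHD WT share. The Full M880A share was 0.601 times (0.498 to 0.726) the Full WT share. Between the lengths, the Full WT share was 1.00 times (0.831 to 1.20) the PHD WT share, and the Full M880A share was 2.17 times (1.70 to 2.78) the PHD M880A share. The M880A libraries thus held smaller shares than WT at both lengths, while the interval for Full WT over PHD WT held 1. By the read names, Full WT was alone on its flow cell while 1 other flow cell carried the remaining 3 libraries, so flow cell cannot be told apart from the comparisons that hold Full WT. Within chromosome 17 alone the ratios were 0.375 (0.293 to 0.477) for PHD and 0.721 (0.597 to 0.871) for Full.

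To place the region among others, the genome was divided into 743 tiles of 3.5 Mb, counted from the first base of each chromosome. Only 2 tiles had more Full M880A sites than the region, 2 had more Full WT sites, 12 had more PHD M880A sites and 2 had more PHD WT sites. The median tile held 46, 22, 45 and 25 sites in the same order of libraries. The region thus held 5.04, 10.0, 2.11 and 9.96 times as many. For the PHD pair, 153 tiles held 100 or more sites of both libraries together, and the ratio of the PHD M880A share to the PHD WT share ran from 0.338 to 2.46, with a median of 0.714. The region, at 0.278 when 0.5 is added to each count, was below all of them. This rank depends on the bounds, since the ratio of the inner 2.5 Mb, 0.356, is above that of the lowest tile. In the Full pair, 9 of 161 such tiles had a lower ratio than the region's 0.601, and the median was 0.831. In the ratio of Full WT to PHD WT the region lay in the middle, with 52 of 103 tiles lower. In that of Full M880A to PHD M880A it lay near the top, with 292 of 293 tiles lower. Tiles that overlap the region were kept, and these ranks describe the 4 libraries without a test.

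**Figure D2:**
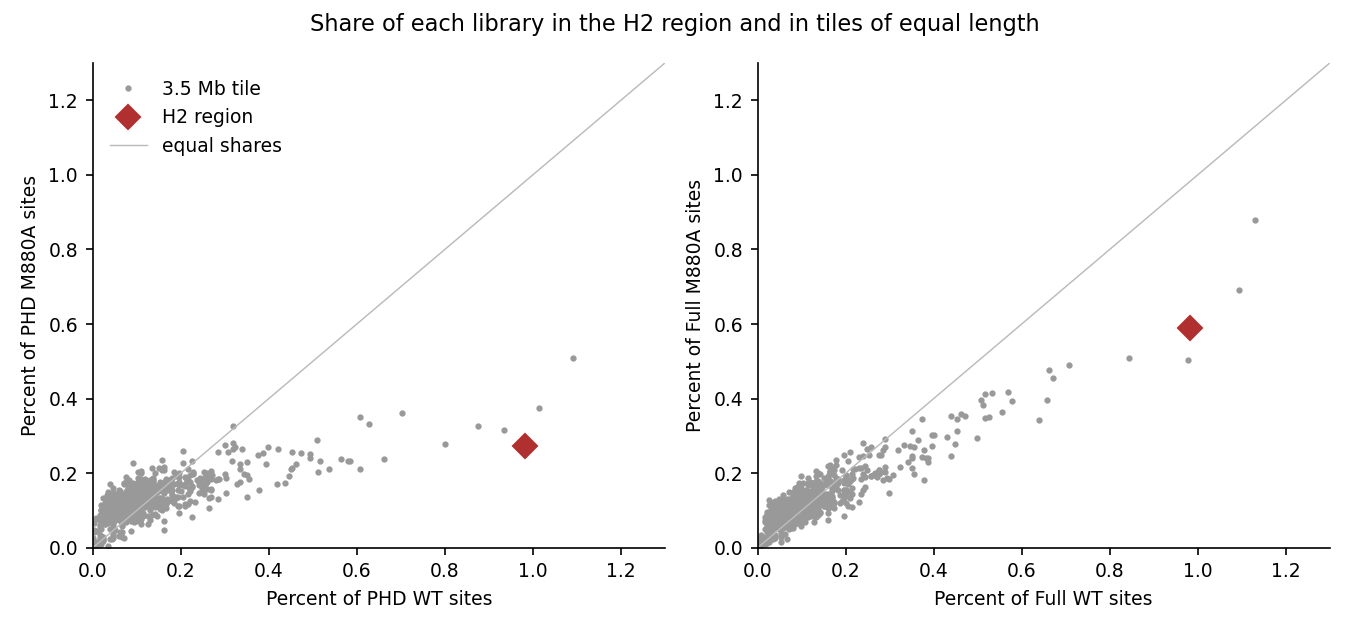
Percent of the M880A sites (vertical axis) against percent of the WT sites (horizontal axis) in each 3.5 Mb tile of the genome (grey points) and in the H2 region (red diamond), for PHD on the left and Full on the right. The region lies far to the right in both panels, at 0.272% of PHD M880A and 0.982% of PHD WT sites, and at 0.590% of Full M880A and 0.983% of Full WT sites, below the grey line of equal shares.

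Along the region, rich and poor stretches of 500 kb alternated. Of 7 segments of this length, 3 had at least 100 sites over the libraries and together held 644 sites (80.8%). The first of these, from 33900001 to 34400000, had 66 Full M880A, 56 Full WT, 19 PHD M880A and 97 PHD WT sites. The next, from 34900001 to 35400000, had 67, 74, 26 and 72 sites in the same order, and that from 35900001 to 36400000 had 37, 58, 21 and 51. These 3 segments carried the largest counts of every library. Between them, the segment from 34400001 to 34900000 had 15, 14, 8 and 5 sites, and that from 35400001 to 35900000 had 26, 8, 14 and 9. The last 1 Mb was poorer still in the sum of the libraries, though not in PHD WT, with 8, 3, 0 and 4 sites from 36400001 to 36900000 and 13, 8, 7 and 11 sites from 36900001 to 37400000. For PHD M880A, 0 of 34888 sites in the segment from 36400001 allows a share of up to 0.00860%.

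The intervals of the M880A to WT ratios lay below 1 in all 3 rich segments for both lengths, and held 1 in all 4 poor ones. Rich and poor were set by the sum of the same libraries, and the few sites of the poor segments leave wide intervals. This contrast thus cannot be told apart from site number. The Full ratio of the poor segment from 34400001, 0.613, was below that of the first rich one, 0.674. The ratio of the PHD M880A share to the PHD WT share was 0.142 (0.0822 to 0.235) in the first rich segment, 0.263 (0.161 to 0.416) in the next and 0.299 (0.171 to 0.507) in the last. In the poor segments starting at 34400001, 35400001 and 36900001 it was 1.16 (0.336 to 4.52), 1.13 (0.456 to 2.96) and 0.463 (0.152 to 1.31), and from 36400001, with 0 and 4 sites, the interval reached up to 1.10. For the Full pair the rich segments gave 0.674 (0.465 to 0.981), 0.518 (0.367 to 0.731) and 0.365 (0.235 to 0.561). The poor segments gave 0.613 (0.276 to 1.37), 1.86 (0.818 to 4.75), 1.53 (0.366 to 8.93) and 0.930 (0.357 to 2.59). Full WT and PHD WT, alike over the whole region, were unlike at its start. Full WT had 0.651 times (0.460 to 0.914) the PHD WT share in the first segment and 3.16 times (1.07 to 11.2) in the segment from 34400001. In the inner 2.5 Mb of the region Full WT had 1.26 times (0.994 to 1.59) the PHD WT share. The likeness thus depends on the bounds, though this interval also holds 1. No adjustment was made for looking at 7 segments, and whether the segments differ from each other was not tested.

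**Figure D3:**
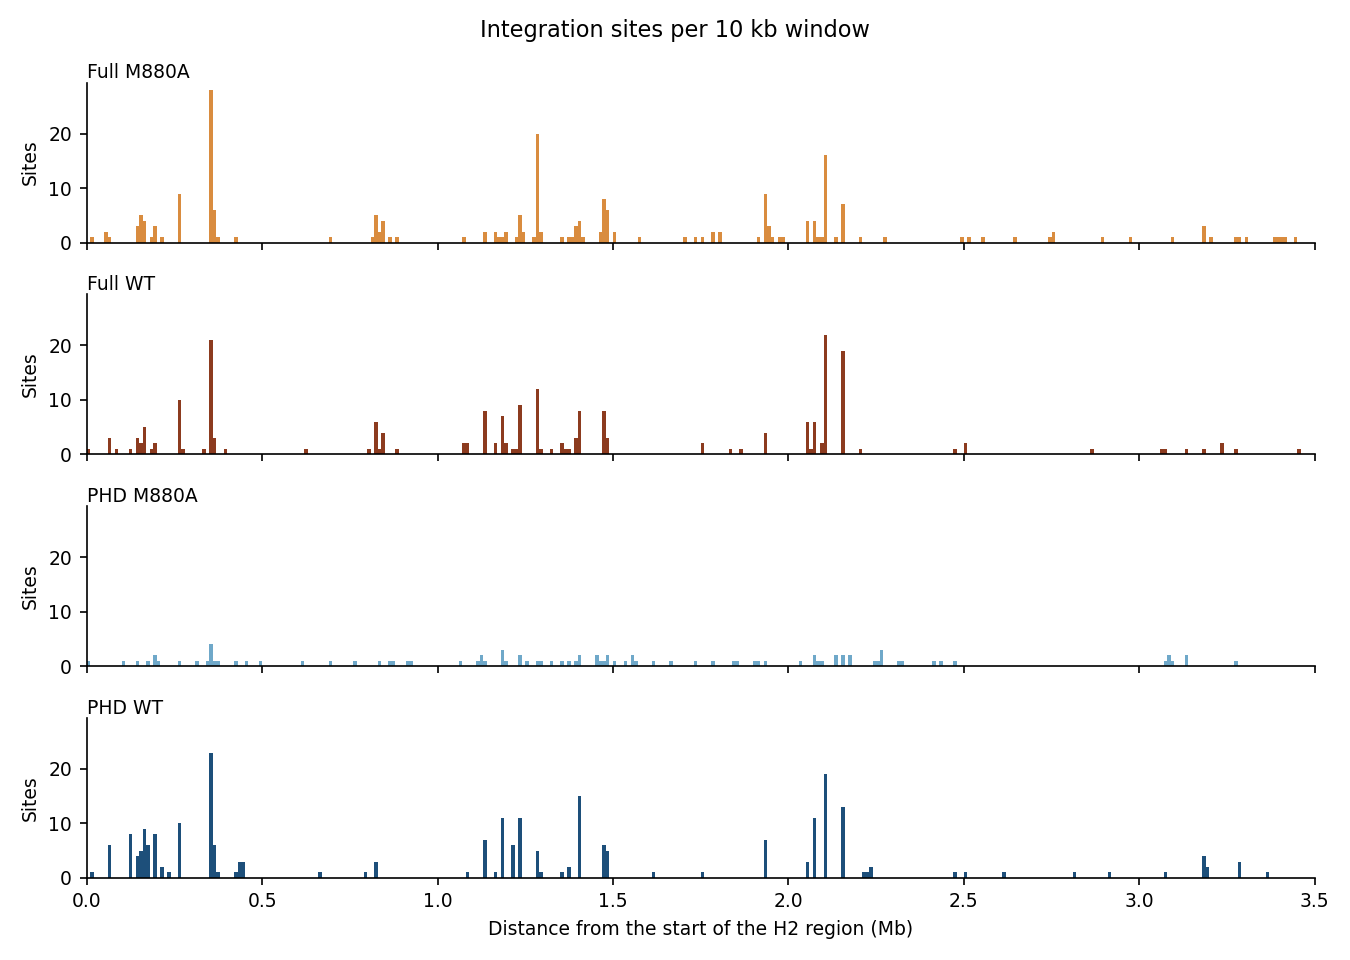
Sites per 10 kb window (vertical axis) against distance from the start of the H2 region in Mb (horizontal axis), with 1 panel per library. Full M880A, Full WT and PHD WT rise to at least 22 sites in their fullest window, while no PHD M880A window exceeds 4, and the last 1 Mb has low counts in all panels.

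In windows of 10 kb, the region was a mixture of a few full windows and many empty ones. Of 350 windows, 196 (56.0%) held no site of any library, compared with 73.9% of 256709 windows in the rest of the genome and 71.7% of 8871 in the rest of chromosome 17. A window was called hot when it held at least 10 sites over the 4 libraries. The region had 21 hot windows (6.0%), against 0.532% in the rest of the genome and 0.800% in the rest of chromosome 17. They held 530 of the 797 sites (66.5%), against 18.8% of the sites in hot windows elsewhere. By library, the hot windows of the region held 64.7% (58.3 to 70.5) of its Full M880A sites, 75.6% (69.5 to 80.8) of its Full WT sites, 27.4% (19.4 to 37.1) of its PHD M880A sites and 75.1% (69.4 to 80.1) of its PHD WT sites. In the rest of the genome these shares were 13.9%, 26.8%, 5.28% and 38.3%. Hot windows were chosen on the sum of all libraries, so a crowded library has more weight in the choice.

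The spread over windows differed most between PHD M880A and the rest. Full M880A occupied 83 of the 350 windows, Full WT 61, PHD M880A 75 and PHD WT 53. When every library was reduced to the 95 region sites of PHD M880A, the expected numbers were 47.9 windows for Full M880A, 39.6 for Full WT, 75 for PHD M880A and 36.3 for PHD WT. Of the occupied windows, 49 held a single site in Full M880A, 29 in Full WT, 59 in PHD M880A and 21 in PHD WT. The fullest windows needed to collect 50% of the region's sites numbered 11 in Full M880A, 9 in Full WT, 28 in PHD M880A and 10 in PHD WT. PHD M880A thus had the fewest sites of the 4 libraries in the region and laid them in the second-highest number of windows.

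Adjoining hot windows formed 17 hot stretches, numbered here by their order along the region. Full M880A, Full WT and PHD WT each had sites in all 17, and PHD M880A had none in 4. In most stretches the sites lay close together. The fullest run of sites with gaps of at most 1000 bp, over all libraries, measured from 979 to 7380 bp, with a median of 2598 bp. It held only 28.6% of the sites in stretch 6, 43.9% in stretch 2 and 56.7% in stretch 4. In the other stretches it held from 76.9% to 100%.

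The fullest stretch was the fifth, from 34250001 to 34270000, with 34 Full M880A, 24 Full WT, 5 PHD M880A and 29 PHD WT sites. Per 10000 sites of the library these are 8.65, 10.7, 1.43 and 11.4. Its sites were concentrated in 7380 bp, from 34253427 to 34260806, which held 89 of 92 sites. The PHD M880A share was 0.125 times (0.0379 to 0.327) that of PHD WT and the Full M880A share 0.811 times (0.467 to 1.43) that of Full WT. Full M880A had 6.04 times (2.35 to 19.8) the PHD M880A share, so M880A was low against WT in the PHD pair here, while the interval of the Full pair holds 1.

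The next in size was stretch 16, from 36000001 to 36010000, with 16 Full M880A, 22 Full WT, 0 PHD M880A and 19 PHD WT sites. All 57 lay in 5533 bp, from 36001784 to 36007316. With no PHD M880A site only a bound can be given, and the exact interval of the ratio of the PHD M880A share to the PHD WT share reached up to 0.156. The interval of the ratio of the Full M880A share to the PHD M880A share began at 3.42. The Full M880A share was 0.416 times (0.204 to 0.830) that of Full WT. This was the fullest window of Full WT.

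Stretch 2, from 34040001 to 34070000, had 12 Full M880A, 10 Full WT, 1 PHD M880A and 18 PHD WT sites. The PHD M880A share was 0.0404 times (0.000969 to 0.256) that of PHD WT, and the Full M880A share was 0.687 times (0.272 to 1.77) that of Full WT. It was not a single cluster, since its fullest run held 18 of 41 sites. In stretch 4, too, the fullest run held only 17 of 30 sites. Stretch 17, from 36050001 to 36060000, had 7 Full M880A, 19 Full WT, 2 PHD M880A and 13 PHD WT sites, most of them (35 of 41) in 2280 bp. Here both M880A libraries were low against WT, with ratios of 0.112 (0.0123 to 0.494) for PHD and 0.211 (0.0749 to 0.524) for Full.

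In stretches 10, 13 and 12, among others, the Full M880A share stood above that of PHD M880A while the Full M880A to Full WT ratio had an interval that holds 1. Stretch 10, from 35180001 to 35190000, had 20 Full M880A, 12 Full WT, 1 PHD M880A and 5 PHD WT sites. The Full M880A share was 17.8 times (2.84 to 736) that of PHD M880A and 0.954 times (0.444 to 2.14) that of Full WT, and the Full WT share was 2.71 times (0.888 to 9.81) that of PHD WT. Stretch 13, from 35830001 to 35840000, had 9, 4, 1 and 7 sites in the order Full M880A, Full WT, PHD M880A and PHD WT. It was the only hot stretch with a higher share in Full M880A than in Full WT, by 1.29 times (0.359 to 5.72), an interval that holds 1. The Full WT share there was 0.645 times (0.138 to 2.54) that of PHD WT. In stretch 12, from 35370001 to 35390000, the counts were 14, 11, 3 and 11 in that order, and the Full M880A share was 4.14 times (1.16 to 22.5) that of PHD M880A.

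In stretches 8, 7 and 11, as in most others, the M880A shares were below the WT shares at both lengths. Stretch 8, from 35080001 to 35090000, held 1 Full M880A and 7 Full WT sites, and 3 PHD M880A and 11 PHD WT sites. Its Full M880A share was 0.0818 times (0.00181 to 0.636) that of Full WT, the lowest ratio of the Full pair among the hot stretches, and its PHD M880A share was 0.198 times (0.0355 to 0.751) that of PHD WT. Stretch 7, from 35030001 to 35040000, held 2 and 8 sites of the Full pair (0.143, 0.0148 to 0.717) and 1 and 7 of the PHD pair (0.104, 0.00230 to 0.808), M880A first. Stretch 11, from 35300001 to 35310000, had 4 Full M880A, 8 Full WT, 2 PHD M880A and 15 PHD WT sites, 27 of its 29 in 1287 bp. Its PHD ratio of M880A to WT was 0.0969 (0.0108 to 0.417), and its Full ratio was 0.286 (0.0631 to 1.07), an interval that holds 1.

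Stretch 4, from 34160001 to 34170000, had 9 Full M880A, 10 Full WT, 1 PHD M880A and 10 PHD WT sites, with a PHD ratio of 0.0727 (0.00168 to 0.511) and a Full ratio of 0.515 (0.185 to 1.41). Stretch 9, from 35130001 to 35140000, had 5, 9, 2 and 11 sites in the same order, and stretch 15, from 35970001 to 35980000, had 4, 6, 2 and 11. Both had a PHD ratio of 0.132 (0.0142 to 0.606). The remaining 4 stretches (1, 3, 6 and 14) had between 10 and 15 sites each. They held 1 to 5 Full M880A, 2 to 6 Full WT, 0 to 2 PHD M880A and 3 to 8 PHD WT sites.

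**Figure D4:**
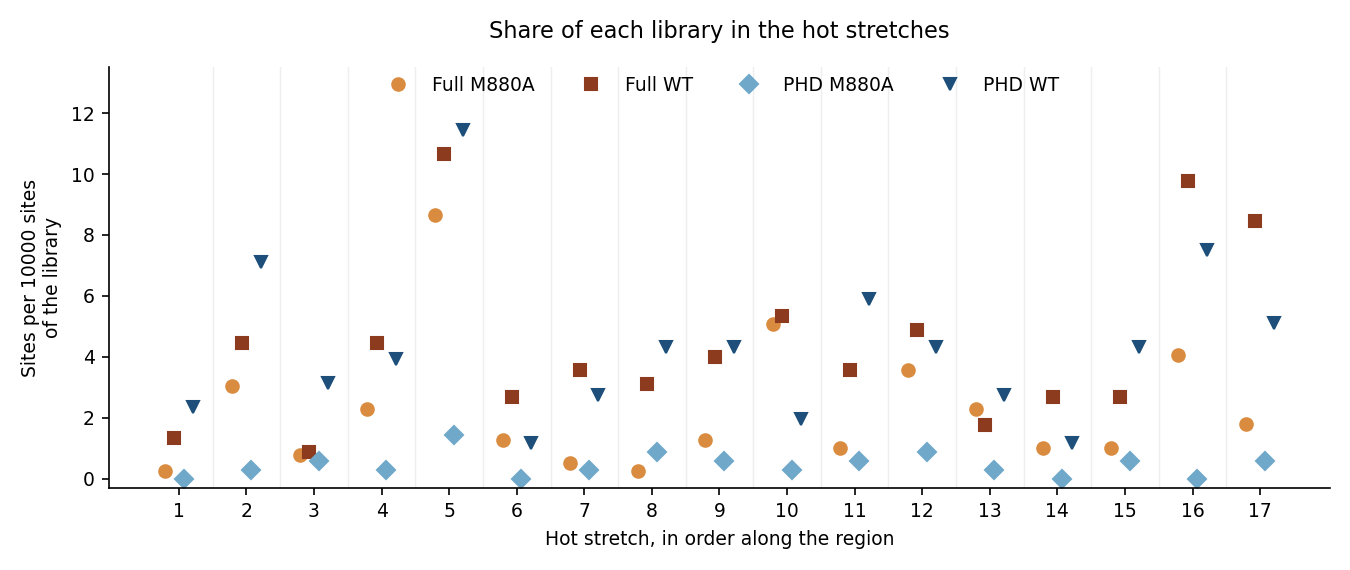
Sites in each hot stretch per 10000 sites of the library (vertical axis), with the 17 stretches in their order along the region (horizontal axis) and 1 symbol per library. PHD M880A lies between 0 and 1.43 in every stretch, and the other libraries reach 8.65 (Full M880A), 10.7 (Full WT) and 11.4 (PHD WT) in stretch 5.

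Over all 17 stretches, the PHD M880A share was below the PHD WT share in 17, and the interval excluded 1 in 14. The Full M880A share was below the Full WT share in 16, with 4 intervals below 1 and 13 that hold it. Full WT was below PHD WT in 9 and above it in 8, and all 17 intervals hold 1. Full M880A was above PHD M880A in 16, with 7 intervals above 1. The stretches were chosen on the sum of the same libraries, which favours a crowded library. Such counts were not made for hot stretches elsewhere, so they describe the region only. No adjustment was made for looking at 17 stretches.

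To compare a pair in windows it did not choose, windows were entered by the other pair. In the 22 region windows in which both Full libraries together had 5 or more sites, PHD M880A had 27 sites and PHD WT 181, a ratio of shares of 0.108 (0.0696 to 0.163). The 1584 windows elsewhere that met the same rule gave 0.152 (0.144 to 0.160). In the 22 region windows chosen likewise by the PHD libraries, Full M880A had 141 sites and Full WT 157, a ratio of 0.514 (0.406 to 0.649), and the 1704 windows elsewhere gave 0.475 (0.457 to 0.494). The intervals for the region hold the value of the rest of the genome in both pairs. Such windows made up 22 of 350 windows in the region, against 1584 and 1704 of 256709 elsewhere.

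Single windows were also counted past a fold. A window with at least 5 sites over a pair was called when the ratio of shares, with 0.5 added to each count, was at least 4-fold. For PHD M880A over PHD WT, 21 of 22 region windows were called lower and none higher, against 74.9% lower and 0.232% higher among all such windows of the genome. Windows enter by the pair's total, which favours the crowded library. For Full M880A over Full WT, 3 of 22 were called lower and none higher, against 18.6% and 3.49%. For Full WT over PHD WT, 2 of 25 were called lower and none higher, against 9.92% and 1.8%. For Full M880A over PHD M880A, 8 of 15 were called higher and none lower, against 32.8% higher and 0.886% lower. The shares for the comparisons that hold Full WT were thus near those of the genome, and with 15 to 25 windows a single window moves a share by at least 4 percentage points.

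The lowest PHD ratios were in windows without any PHD M880A site. After stretch 16 these were 34060001 to 34070000 with 9 PHD WT sites (interval of the ratio up to 0.368), 34020001 to 34030000 with 8 (up to 0.426), and 33960001 to 33970000 and 35110001 to 35120000 with 6 each (up to 0.617). Of these 4, only the last named lies outside the first 500 kb of the region. The called windows of the Full pair were those of stretches 8, 7 and 17. The called windows of Full WT over PHD WT were 34070001 to 34080000, with 0 Full WT and 6 PHD WT sites (interval up to 0.958), and 34020001 to 34030000, with 1 and 8 (0.141, 0.00318 to 1.05). For Full M880A over PHD M880A the highest were stretches 16 and 10, and the windows from 34050001 and from 34720001 with 5 and 0 sites each (interval from 0.814, which holds 1).

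At the scale of single sites, stretch 5 was used over the same few kb by all libraries, with unlike fine patterns. The PHD WT sites formed 3 groups, with 13 sites from 34253570 to 34255873, 5 from 34256882 to 34257362 and 10 from 34258805 to 34260689. The Full libraries, by contrast, had their highest 1 kb counts in the adjacent kb from 34257001 and 34258001, with 9 and 7 sites in Full M880A and 6 and 5 in Full WT, where PHD M880A had 0 and 0, and PHD WT 4 and 1. Of the 5 PHD M880A sites, 4 lay at the low-coordinate end, between 34253001 and 34256000. The PHD M880A sites of this stretch had a median of 8 reads, against 23.5 in Full M880A, 57 in Full WT and 40 in PHD WT. The median positions were 34257068 in Full M880A, 34257254 in Full WT, 34254175 in PHD M880A and 34256882 in PHD WT.

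In stretch 16 the WT libraries covered nearly the same bases, from 36003673 to 36007316 in Full WT and from 36003240 to 36007103 in PHD WT. Full M880A reached further down, to 36001784, and had 4 sites below 36003001, where the other libraries had none. Its median position was 36003980, against 36005012 in Full WT and 36004809 in PHD WT. In the kb from 36004001, Full M880A had 1 site, Full WT 8 and PHD WT 6. In stretch 17 the sites of both M880A libraries lay within the bases used by WT, over 932 bp in Full M880A and 279 bp in PHD M880A, compared with 4537 bp in Full WT and 3876 bp in PHD WT. In stretch 16 the Full M880A sites had a median of 7.5 reads, against 43.5 in Full WT and 62 in PHD WT. The counts per library are small, and these positions are given as a description.

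**Figure D5:**
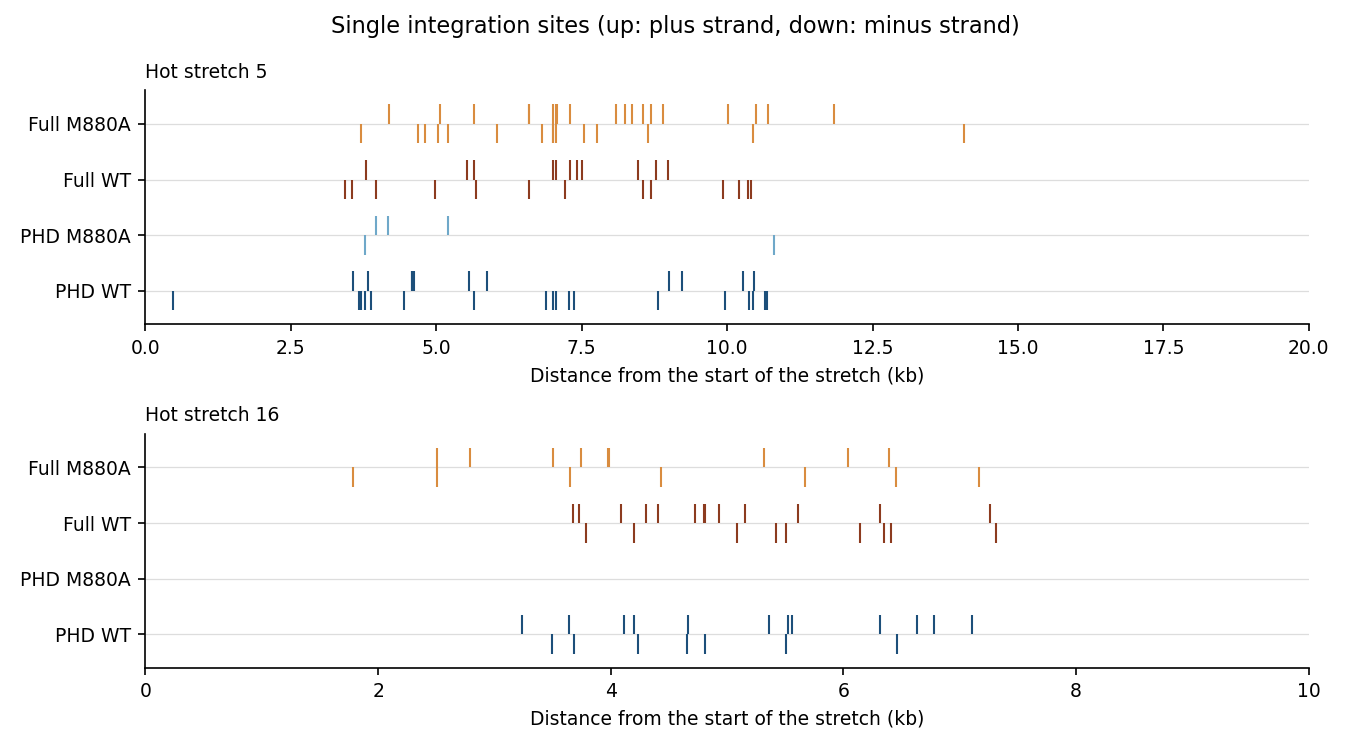
Each tick is 1 integration site in hot stretch 5 (upper panel) and hot stretch 16 (lower panel), by distance from the start of the stretch in kb (horizontal axis) and by library (vertical axis), with plus-strand sites above and minus-strand sites below the line. In stretch 16 there is no PHD M880A tick, and 4 Full M880A ticks lie below 3 kb, where no other library has any.

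Crowding within the region was highest in PHD WT and lowest in PHD M880A. After each library was thinned to the 22486 sites of the smallest, 55.9% of the region's Full M880A sites had another site of the library within 1000 bp, against 15.5% in the rest of the genome. The share was 76.0% of the Full WT sites, against 38.7% elsewhere. It was 10.9% of the PHD M880A sites, against 6.13% elsewhere, and 85.3% of the PHD WT sites, against 65.2%. Unthinned, the counts were 147 of 232 (57.0 to 69.3%), 168 of 221 (70.0 to 81.2%), 14 of 95 (8.99 to 23.2%) and 215 of 249 (81.5 to 90.1%) in the order Full M880A, Full WT, PHD M880A and PHD WT. Full M880A, Full WT and PHD WT were thus more crowded in the region than outside it. For PHD M880A the interval of the thinned share, 5.82 to 18.3%, holds the value of the rest of the genome. Thinning made whole libraries equal but not their sites in the region, which held 0.272% of PHD M880A and 0.982% of PHD WT. The part of this unequal density in the crowding was not tested.

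When at least 5 sites of a library with gaps of at most 1000 bp were counted as a cluster, Full M880A had 8 clusters in the region, Full WT 12, PHD M880A 0 and PHD WT 20. They held 43.1% (36.9 to 49.5) of the region's Full M880A sites, 55.2% (48.6 to 61.6) of its Full WT sites and 74.7% (69.0 to 79.7) of its PHD WT sites. Elsewhere such clusters held 6.19%, 13.7% and 37.3%. PHD M880A had 29 clusters on the whole genome, with 0.629% of its sites outside the region, and none here. Its 0 of 95 sites in clusters leaves an interval up to 3.89%, which holds that share. The median width was 3013 bp in Full M880A, 1638 bp in Full WT and 1495 bp in PHD WT. Of the 20 PHD WT clusters, with 500 bp added to each side, 3 had no Full M880A site, 2 no Full WT site and 12 no PHD M880A site. The cluster from 34076616 to 34077833, with 6 PHD WT sites, had no site of any other library within 500 bp. All 8 Full M880A clusters and all 12 Full WT clusters held PHD WT sites. The whole genome had 336 Full M880A, 445 Full WT and 1222 PHD WT clusters. Their overlaps were not counted, so these overlaps are not shown to be particular to the region.

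The libraries met in the same places more often in the region than outside it. Of the region's PHD M880A sites, 22.5% lay within 1000 bp of a PHD WT site and 26.3% within 1000 bp of a Full WT site, with the other library thinned to 22486 sites, against 6.64% and 6.65% in the rest of the genome. For Full M880A the shares were 61.6% near Full WT and 56.6% near PHD WT, against 16.97% and 17.2%. Of the Full WT sites 70.9% lay near a PHD WT site, against 39.8% elsewhere, and of the PHD WT sites 79.1% near a Full WT site, against 54.1%. Site density was also higher in the region in every library, and its part in these shares was not tested.

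By windows, 18 held sites of all 4 libraries and 421 of the 797 sites, 18 held 3 libraries and 176 sites, 28 held 2 libraries and 90 sites, and 90 held 1 library and 110 sites. Windows with a single library belonged to Full M880A in 30 cases, to Full WT in 14, to PHD M880A in 33 and to PHD WT in 13, and none held more than 3 sites. Of the 75 windows with a PHD M880A site, 24 (32.0%) also had a PHD WT site, while of the 53 with a PHD WT site 24 (45.3%) also had a PHD M880A site. Of the 61 Full WT windows 33 (54.1%), and of the 53 PHD WT windows 33 (62.3%), were shared between these libraries. Such window counts were not made for the rest of the genome. Sites per occupied window ranged from 1.27 in PHD M880A to 4.70 in PHD WT. The part of site number and crowding in these counts was not tested. One of the 3 fullest PHD M880A windows, from 36160001 to 36170000, had 3 of its sites and none of the other libraries. The other two lay in stretches 5 and 8, with 4 and 3 sites.

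The empty windows formed 71 stretches, 10 of which were at least 50 kb long and together took 75 windows. The longest ran from 34830001 to 34960000, 130 kb without a site of any library, and its flanking sites were 149203 bp apart. The next was from 34400001 to 34510000 (110 kb), inside the poor segment that follows the first rich one. A further 8 measured from 50 to 90 kb, and 7 of these lay beyond position 36230000. They began at 36230001, 36460001, 36550001, 36660001, 36820001, 36880001 and 37210001, while the remaining one ran from 34600001 to 34660000. Empty stretches of this size were common elsewhere: 2263 on the genome, 81 of them on chromosome 17, were at least as long as the region's longest, and the longest was 7590 kb. An empty window says only that no site was listed there at this depth.

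The whole number that ends each site name was read as its read count and had medians in the region of 36.5 in Full M880A, 49 in Full WT, 32 in PHD M880A and 38 in PHD WT, compared with 24, 41, 23 and 29 in the rest of the genome. Within the region the medians in hot and in other windows were 39.5 and 29.5 in Full M880A, 47 and 52 in Full WT, 28 and 32 in PHD M880A, and 38 and 36 in PHD WT. Hot windows thus had the higher median in Full M880A and PHD WT and the lower one in Full WT and PHD M880A. In the region the plus strand held 50.0% of Full M880A, 48.4% of Full WT, 57.9% (47.8 to 67.3) of PHD M880A and 53.0% of PHD WT sites, and all 4 Wilson intervals hold 50%. A set of 17 positions was listed on the same strand in 2 libraries each. Of these, 16 lay in hot windows, which held 66.5% of the region's sites. The positions comprised 5 shared by Full M880A and Full WT, 7 by Full M880A and PHD WT, and 5 by Full WT and PHD WT. In the region they were 2.16%, 3.02% and 2.26% of the sites of the first-named library. On the whole genome these pairs shared 67, 104 and 200 positions. There Full M880A had 39292 sites and Full WT 22486, so the shares were higher in the region. The part of site density in this was not tested. None of the 95 PHD M880A sites recurred in another library. Of its 34888 sites on the genome, 25 were shared with Full M880A, 46 with Full WT and 40 with PHD WT. At so low a share, 0 of 95 does not set the region apart.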

How the data were processed

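For each library the authors deposited a BED list of sites, from paired-end sequencing per the file headers, which also name the substitution. The submitters' processing notes name mm9 and MACS 1.4.2 with no role. The aligner is "not given in the sources used here", nor are filters. Scores in the deposited lists are all 0 and carry no information. The junction was the start plus 1 on the plus strand and the end on the minus strand. Lines with equal chromosome, strand and junction were collapsed, their read numbers summed. In the region 235, 228, 97 and 262 lines gave 232, 221, 95 and 249 sites (Full M880A, Full WT, PHD M880A, PHD WT). The whole libraries held 39292, 22486, 34888 and 25363 sites after collapsing.

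Groups came from the sample characteristics, with 1 library each, so no test was run. Densities have exact Poisson intervals, shares Wilson intervals, and ratios of shares exact conditional binomial intervals, all at 95%. Thinning and reduction to equal numbers were computed in closed form as means over all draws. Windows of 10 kb start at the region's first base. The rule for named windows took the 12 hot stretches with most sites, the 3 fullest windows per library, the 10 longest empty stretches and up to 5 called windows per comparison and direction. Region, rules and comparisons were chosen with earlier results of these data known. Code was tested on simulated data. Calculations used Python 3.11.15, numpy 2.4.6, scipy 1.17.1 and matplotlib 3.10.9. No mm9 genome or annotation was used, so no sequence is printed; gene order came from RefSeq names of GRCm38.p6, whose coordinates were not used. Alternatives were a minimum of 10 reads, merging within 10 bp, other windows, folds, thresholds and bounds.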

Additional observations from a re-analysis of the deposited data

Results flagged for a closer look

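The ratio of the M880A share to the WT share in the region was lower for PHD (0.277) than for Full (0.601). The PHD ratio divided by the Full ratio was 0.462 (0.342 to 0.623), by an interval from the 4 site counts that covers counting error only. It was noted because the same substitution gave unequal ratios at the 2 lengths. Such a gap was not particular to the region. In windows entered by the other pair, the rest of the genome gave 0.152 (0.144 to 0.160) for PHD and 0.475 (0.457 to 0.494) for Full. In the region's 329 windows that were not hot, the ratios were 0.809 (0.566 to 1.16) and 0.869 (0.609 to 1.25). In its hot windows they were 0.101 (0.0643 to 0.153) and 0.514 (0.410 to 0.645). Hot windows were chosen on the sum of the same libraries. Each value rests on 1 library per group, Full WT was sequenced apart from the other libraries, and the part of the flow cell was not tested.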

How the results depend on the processing

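No paired analysis was possible because each group has 1 library. Of 143 values recomputed under an alternative, 125 kept within the limits set for them (the main interval, 1.5 times a count, or the side of 1), and no called direction changed. The ratios of region shares kept their side of 1, or an interval that holds 1 for Full WT over PHD WT, with at least 10 reads, merged positions, shares of chromosome 17, identical positions left out and the inner 2.5 Mb. In those inner 2.5 Mb the shares of the library fell to 0.389% in Full M880A, 0.698% in Full WT, 0.198% in PHD M880A and 0.556% in PHD WT, since 1 Mb is left out. Called windows at 2-fold numbered 10 lower for Full M880A over Full WT, and 5 lower and 3 higher for Full WT over PHD WT. With at least 10 sites over the pair, 9 of 9 were lower for PHD M880A over PHD WT, 0 of 14 lower for Full WT over PHD WT, and 5 of 5 higher for Full M880A over PHD M880A. Self-clustering within 5000 bp was 72.5% in Full M880A, 86.9% in Full WT, 28.3% in PHD M880A and 91.2% in PHD WT. With at least 10 reads it was 49.5% in Full M880A and 5.54% in PHD M880A. Proximity of Full M880A to Full WT was 53.5% with at least 10 reads. Without Full WT there were 14 hot stretches and 210 empty windows, against 17 and 196 with it. These, the proximity values and the inner-bound ratios are alternatives chosen after seeing the data. With up to 1 site allowed, the longest empty stretch was 31 windows. Apart from the inner bounds, the distance, the fold and the window minimum, whose construction moves the value, the cause was not tested. Site numbers limit the ratios of single windows, whose intervals are wide.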
